A study of Mus musculus with 30 samples.

Results

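The genes described here are 37 genes of the mouse cell division cycle, chosen by symbol and read across all 10 groups of a liver RNA-seq series. They make up 37 of the 51826 gene identifiers in the count table. All 37 passed the low-count filter and were among the 19685 genes tested. By role they are 7 genes for cyclins and Cdk1, 5 for transcription and chromatin regulators, 8 for replication licensing, 5 for nucleotide supply and the replication fork, and 12 for mitosis and cytokinesis.

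The samples were slices of left liver lobe from male mice of a strain written C57BL16 in the labels, whose age at exposure is not given in the sources used here. Mice of the irradiated arm received 0.2 Gy of 600 MeV/n 56Fe ions, which are heavy charged particles of the kind found in cosmic rays, and mice of the control arm were not irradiated. Each arm gave 3 biological replicates at days 30, 60, 120, 270 and 360 (months 1, 2, 4, 9 and 12), so that 30 libraries of bulk tissue were read. The comparisons asked whether cell cycle transcripts differed between the arms at each month, and how they changed with time within each arm.

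A cell enters division when D-type and E-type cyclins activate their kinases and release E2F transcription factors, which switch on the genes of DNA replication. Cyclin A and cyclin B with the kinase Cdk1 then drive mitosis, and FOXM1 raises the late genes while the repressors E2F7 and E2F8 shut the early ones down. Most hepatocytes of an adult liver rest outside the cycle, and many are polyploid, a state that E2F7 and E2F8 are known to promote in the mouse liver.

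Levels below are CPM (counts scaled to a common library size) with TMM factors, and library totals were 7995248 to 20215995 counts. Defining hepatocyte genes were high in every library, with albumin (Alb) at 15800 to 75700 CPM. The long non-coding RNA Gm26917 made up 0.452% to 2.04% of a library at months 4, 9 and 12, against 3.04% to 7.57% at months 1 and 2. This split in composition and the month of collection cannot be told apart. At month 1 Gm26917 took 6.36% to 7.57% in 56Fe livers and 3.04% to 6.09% in control livers. The arms did not overlap either at month 2 (4.79% to 6.93% and 3.32% to 4.76%) or month 4 (0.827% to 0.985% and 0.469% to 0.508%). At month 12 the order was reversed, with 0.759% to 1.04% in 56Fe livers and 1.33% to 2.04% in control livers. At month 9 the arms overlapped. Control month 12 replicate 2 stood apart with 1240 CPM summed over 8 Kupffer cell and macrophage markers, where the other 29 livers lay at 173 to 752 CPM. That liver also had the highest Ptprc (112 CPM). The lymphocyte sums below are mostly Ptprc (median 27.2 CPM), as the other markers of that list had medians of 0.372 to 1.25 CPM. 56Fe month 9 replicate 1 had the highest sum of 6 cholangiocyte markers, at 132 CPM, of which Spp1 alone gave 121 CPM. Epcam was also highest in that liver (4.58 CPM), while Krt19, Krt7, Sox9 and Cftr were highest in control livers. The cholangiocyte sums below are thus mostly Spp1 (median 24.9 CPM), as the other markers of the list had medians of 0.53 to 5.43 CPM.

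Start site sequences were looked at because cycle genes are commonly grouped by promoter elements. RefSeq promoters, 250 bases before to 50 bases from the start site on GRCm38.p6, were matched for 30 of the 37 genes, with 2 windows each for Mcm7, Prc1 and Uhrf1 (the others were Mcm4, Aurkb, Ccne2, Kif20a, Ccnd1, Ccna2 and Foxm1). Exact letters were searched on both strands for E2F elements (TTTCCCGC, TTTGGCGC, TTCCCGCC or TTGGCGGG), for the cell cycle homology region that marks late genes (CHR, TTTGAA or TTCGAA) and for the CCAAT box. TTTCCCGC and TTCCCGCC can overlap each other, and TTCGAA reads the same on both strands. The 5 promoters below are shown because their genes recur in the results, Mcm6 and Rrm1 for the replication genes, Mki67 and Cdk1 for the mitotic genes, and E2f8 for the gene with the largest irradiation difference. Each runs 5′ to 3′ along the gene, and capitals mark the letters searched.
E2f8, chr7:48881547-48881846, minus strand: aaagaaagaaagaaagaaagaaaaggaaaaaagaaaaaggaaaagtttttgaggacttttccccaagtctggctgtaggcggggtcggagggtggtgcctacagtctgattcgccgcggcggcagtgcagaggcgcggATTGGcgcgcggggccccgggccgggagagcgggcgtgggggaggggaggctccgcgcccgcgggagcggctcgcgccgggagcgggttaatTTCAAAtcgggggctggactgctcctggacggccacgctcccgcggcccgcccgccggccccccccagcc
Mcm6, chr1:128359656-128359955, minus strand: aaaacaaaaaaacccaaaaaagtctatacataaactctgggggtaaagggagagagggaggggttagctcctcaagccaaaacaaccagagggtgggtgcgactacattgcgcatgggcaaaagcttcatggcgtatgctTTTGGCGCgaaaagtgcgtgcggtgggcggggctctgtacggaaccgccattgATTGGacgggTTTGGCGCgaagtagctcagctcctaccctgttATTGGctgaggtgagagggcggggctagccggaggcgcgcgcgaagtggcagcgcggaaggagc
Rrm1, chr7:102441445-102441744, plus strand: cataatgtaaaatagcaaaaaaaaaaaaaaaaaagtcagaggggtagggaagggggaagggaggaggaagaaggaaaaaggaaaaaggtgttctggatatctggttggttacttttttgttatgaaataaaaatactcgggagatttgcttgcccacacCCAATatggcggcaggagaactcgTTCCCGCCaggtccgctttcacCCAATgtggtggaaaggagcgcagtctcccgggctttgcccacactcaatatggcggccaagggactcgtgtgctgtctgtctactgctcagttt
Mki67, chr7:135716330-135716629, minus strand: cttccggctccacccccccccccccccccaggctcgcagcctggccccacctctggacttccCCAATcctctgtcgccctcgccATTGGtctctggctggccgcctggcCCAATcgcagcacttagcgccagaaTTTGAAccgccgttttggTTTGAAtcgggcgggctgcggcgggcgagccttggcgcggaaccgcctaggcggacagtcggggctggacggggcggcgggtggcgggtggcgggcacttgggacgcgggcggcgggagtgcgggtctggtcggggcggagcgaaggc
Cdk1, chr10:69352863-69353162, minus strand: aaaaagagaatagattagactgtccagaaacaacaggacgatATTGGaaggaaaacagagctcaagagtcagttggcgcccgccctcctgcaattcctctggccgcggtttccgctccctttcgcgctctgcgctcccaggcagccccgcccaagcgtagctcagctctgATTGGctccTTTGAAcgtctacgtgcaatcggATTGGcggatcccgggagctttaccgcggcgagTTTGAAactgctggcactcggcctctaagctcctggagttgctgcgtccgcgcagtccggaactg

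A gene was counted where any of its windows held the letters. E2F letters lay in 9 of the 30 genes (30%), against 4.6% of the 27025 genes in the table. They lay in 6 of 7 replication licensing genes (Cdc6, Cdt1, Mcm3, Mcm5, Mcm6 and Mcm7) and in 0 of 10 mitosis and cytokinesis genes; 1 of the 2 windows of Mcm7 and of Uhrf1 held none. CHR letters lay in 14 of 30 (46.7%, against 21.7% of all genes), and in 9 of the 10 mitosis and cytokinesis genes. CCAAT letters lay in 23 of 30 (76.7%, against 41.1% of all genes). The E2f8 promoter held CHR and CCAAT letters and none of the E2F letters searched. A match of letters is a description of the sequence and not of binding.

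The cycle genes were low in these livers. Their median level over 30 livers was under 1 CPM for 8 genes, 1 to 5 CPM for 17, 5 to 10 CPM for 6 and 10 CPM or more for 6, and Ccnb1 and Bub1 each had 1 library at 0 counts. Levels of different genes are compared as CPM per kilobase of merged exons. On that scale the highest medians were those of Pcna, the sliding clamp of the replication fork (8.74), Tk1, the thymidine kinase (4.36), Mcm7, a subunit of the replicative helicase (3.39), and Ccnd1, cyclin D1 (2.58). The lowest were Bub1, a kinase of the spindle checkpoint (0.126), Ccnb1, cyclin B1 (0.123), and Foxm1 (0.101). All 5 genes of nucleotide supply and the replication fork ranked among the 12 highest, and of 12 mitosis and cytokinesis genes Aurka alone (1.23), the kinase of the centrosome, ranked among the 18 highest. Neighbours in this order overlapped in their ranges over livers, as in Tk1 (2.53 to 6.75) and Mcm7 (2.11 to 4.55).

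**Figure D1:**
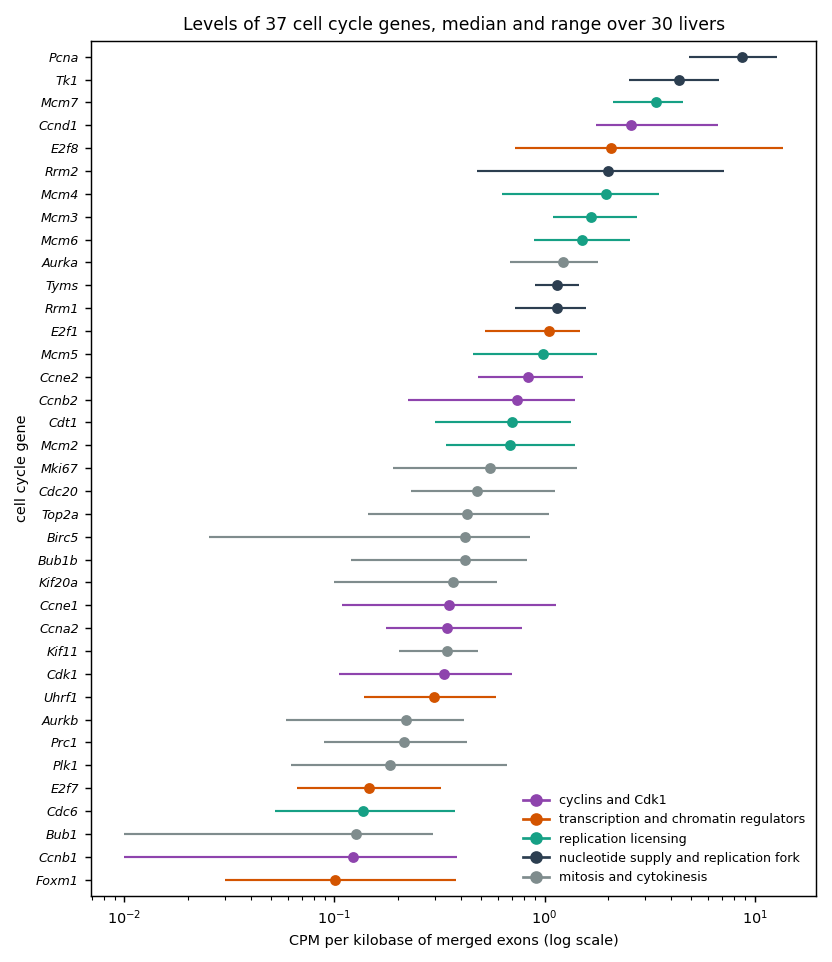
Median (point) and lowest to highest value (line) of each cell cycle gene over 30 livers, in CPM per kilobase of merged exons on a log scale, coloured by role. Pcna is highest with a median of 8.74 and Foxm1 lowest with 0.101. The lower ends of Ccnb1 and Bub1, each with a library at 0, are drawn at 0.01.

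The genes differed in how far they ranged over the 30 livers. Tyms, thymidylate synthase, stayed within 5.47 to 8.92 CPM and Rrm1, the large subunit of ribonucleotide reductase, within 7.94 to 17.3 CPM. E2f8 ranged over 18.9-fold, with 3.94 to 74.7 CPM, and Rrm2, the small and cycle-regulated reductase subunit, over 15.1-fold, with 1.32 to 19.9 CPM. Birc5 (survivin) ranged over 33.8-fold, but its lowest library held 1 count. Mki67, the Ki-67 proliferation marker, ranged over 7.52-fold, with its highest value (14.3 CPM) in control month 12 replicate 2. Mki67 and Top2a, topoisomerase II alpha, moved together over livers of months 4, 9 and 12 (log2 CPM, Pearson r = 0.85, adjusted permutation p = 0.00024; Spearman rho = 0.67, adjusted p = 0.004; n = 18). Without the 2 livers farthest from the median of Mki67, r was 0.66. Over the 12 livers of months 1 and 2, r was 0.65 (adjusted p = 0.0185) and rho 0.62 (adjusted p = 0.0336), with r = 0.51 without the 2 farthest livers. These adjusted values cover 4 relations. The livers were permuted across 2 arms and several months, so differences between groups enter them.

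Few of these genes passed the test between the arms. Cyclin D1 and cyclin E1 were lower in 56Fe livers at month 1, E2f8 was higher at month 2, and none of the 37 genes was called at months 4, 9 or 12. Calls are Benjamini-Hochberg adjusted p under 0.05 over 19685 genes in edgeR's quasi-likelihood test, and fold changes are 56Fe over control. At month 1 the test called 2 of 37 genes, both lower, against 4.6% of all genes (1.49% higher and 3.11% lower). At month 2 it called 1 of 37, higher, against 4.37% of all genes (2.57% higher and 1.8% lower). At month 4 it called 0 of 37, against 3.6% of all genes (1.82% higher and 1.77% lower). The month 9 count was 0 of 37, against 1.66% of all genes (1.16% higher and 0.498% lower). The month 12 count was 0 of 37, against 0% of all genes. Members with an unadjusted p under 0.05 numbered 3, 3, 3, 7 and 2 of 37 in time order. Over all 19685 genes they numbered 3317, 4260, 3759, 3166 and 2648. For the 3 later months DESeq2 called 1, 0 and 0 members and limma voom 2, 1 and 0. The shares of all genes called in these other fits are not given here, so their counts are no result about the members.

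**Figure D2:**
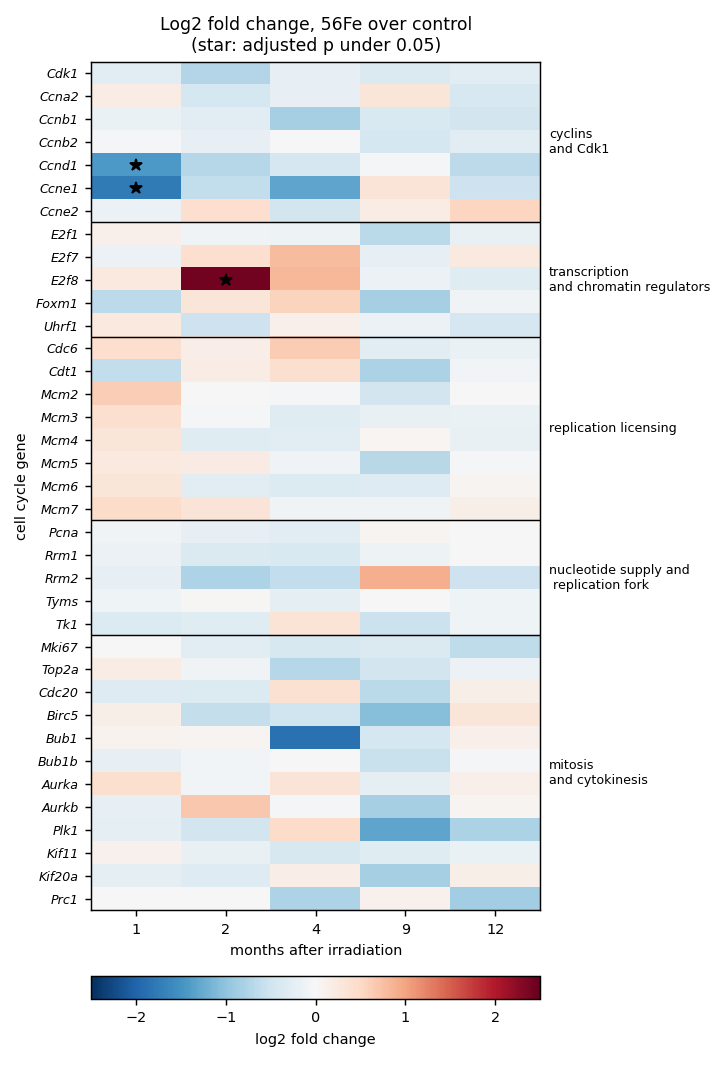
Log2 fold change of each cell cycle gene, 56Fe over control, at each month (colour; red is higher in 56Fe livers), ordered by role, with a star where the adjusted p is under 0.05. The 3 stars are Ccnd1 (-1.44) and Ccne1 (-1.78) at month 1 and E2f8 (2.40) at month 2.

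Among the 7 cyclin and Cdk1 genes, Ccnd1 (ENSMUSG00000070348, chromosome 7, 144929931 to 144939925, minus strand, GRCm38) encodes the D-type cyclin that carries growth signals into the cycle. Its levels at month 1 were 8.61, 8.96 and 8.58 CPM in 56Fe livers, against 30.7, 26.3 and 13.9 CPM in control livers. The 3 irradiated livers were nearly equal and all lay below the lowest control. The mean was 8.72 ± 0.215 CPM in 56Fe livers and 23.6 ± 8.68 CPM in control livers (SD, n = 3 each), a 2.71-fold lower level (log2 fold change -1.44, SE 0.36, edgeR adjusted p = 0.0245). In bulk liver, fewer cells that express the gene and less of its RNA per cell cannot be told apart. At month 2 Ccnd1 had 9.80, 13.2 and 9.60 CPM in 56Fe livers, against 12.8, 19.0 and 21.3 CPM in control livers, a log2 fold change of -0.70 that did not pass (edgeR adjusted p = 0.257). Limma voom (-0.80, adjusted p = 0.0318) and the fit of the 6 livers compared (-0.68, adjusted p = 0.0377) called it. Log2 fold changes of -0.42, -0.02 and -0.65 for months 4, 9 and 12 did not pass either, and at month 12 the highest of all 30 livers (31.5 CPM) was control replicate 2.

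Ccne1 (ENSMUSG00000002068, chromosome 7, 38097984 to 38107534, minus strand) encodes the E-type cyclin that acts with Cdk2 at the start of DNA replication. At month 1 it had 1.15, 0.822 and 0.289 CPM in 56Fe livers, against 3.00, 2.73 and 2.16 CPM in control livers. The groups did not overlap, and the lowest library held 3 counts. The log2 fold change was -1.78 (SE 0.51, 3.43-fold lower, edgeR adjusted p = 0.0401). At month 4 the groups did not overlap either, with 0.343, 0.603 and 0.671 CPM in 56Fe livers against 2.22, 1.01 and 0.857 CPM in control livers, but the difference did not pass (log2 fold change -1.32, edgeR adjusted p = 0.170). At month 9 the sign was the other way, with 1.12, 0.676 and 1.51 CPM in 56Fe livers and 0.954, 1.21 and 0.456 CPM in control livers.

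The other cyclin genes gave no call at any month. Ccne2, the other E-type cyclin, had its largest difference at month 12, with 3.15, 2.68 and 3.66 CPM in 56Fe livers and 1.69, 1.83 and 3.01 CPM in control livers (log2 fold change 0.53, edgeR adjusted p = 0.362). Ccna2, Ccnb1, Ccnb2 and Cdk1, which act from DNA replication into mitosis, overlapped between the arms at months 1, 4, 9 and 12. At month 2 Cdk1 did not overlap, with 0.588, 1.30 and 1.2 CPM in 56Fe livers against 1.38, 1.97 and 1.69 CPM in control livers, and its log2 fold change of -0.73 did not pass (edgeR adjusted p = 0.332). Counted over the 7 genes, log2 fold changes were negative in 6 at months 1, 2, 4 and 12 and in 4 at month 9.

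The month 1 calls depended on how the libraries were handled. Among the alternative fits of all livers or of the 6 compared, Ccne1 was called only with RLE factors, no low-count filter and limma voom. Ccnd1 was called in those fits except with no low-count filter and with Gm26917 as a covariate. Leaving out control replicate 1 or 2, or any of the 3 56Fe replicates, left 0 members called, with log2 fold changes of -1.41 to -1.17 for Ccnd1 and -2.13 to -1.40 for Ccne1. With log2 CPM of Gm26917 as a covariate, Ccnd1 fell by 0.78 on the log2 scale (adjusted p = 0.619) and Ccne1 by 1.33 (adjusted p = 0.557). The share of Gm26917 did not overlap between the arms at month 1, so this fit cannot separate it from irradiation. LTO1, a gene on the opposite strand that shares 1100 bases of exon with Ccnd1 (23.4% of its exon bases), had 9.68, 10.3 and 8.38 CPM in 56Fe livers and 14.7, 11.4 and 9.21 CPM in control livers at month 1 (log2 fold change -0.32, edgeR adjusted p = 0.408). At month 1 none of the 8 hepatocyte markers was called, and their sum was 25400 to 47600 CPM in 56Fe livers and 42200 to 56400 CPM in control livers. Of 6 cholangiocyte markers 1, Sox9, was called higher, and their sum was 33.8 to 66.4 CPM in 56Fe livers and 16.8 to 36.8 CPM in control livers. The part of these shifts in the cyclin results was not tested.

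**Figure D3:**
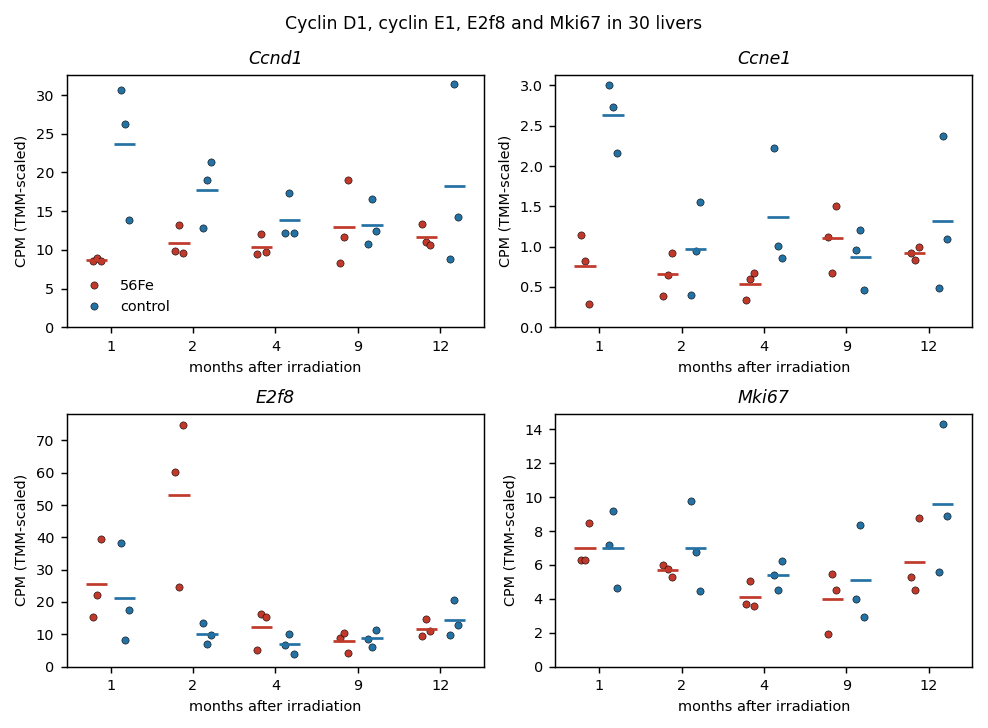
CPM of Ccnd1, Ccne1, E2f8 and Mki67 in each of 30 livers by month (points; red 56Fe, left, and blue control, right) with group means (bars, n = 3). The 56Fe points of Ccnd1 and Ccne1 lie below all control points at month 1, those of E2f8 lie above all control points at month 2, and Mki67 overlaps at each of the 5 months.

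Among the 5 transcription and chromatin regulators, E2f8 (ENSMUSG00000046179, chromosome 7, 48866429 to 48881596, minus strand) encodes an atypical E2F that represses genes of the DNA replication phase. At month 2 it had 60.3, 24.7 and 74.7 CPM in 56Fe livers, against 13.5, 6.85 and 9.89 CPM in control livers. All 3 irradiated livers lay above the controls. The mean was 53.2 ± 25.7 CPM in 56Fe livers and 10.1 ± 3.32 CPM in control livers (SD, n = 3 each), a 5.29-fold higher level (log2 fold change 2.40, SE 0.57, edgeR adjusted p = 0.0252). At month 1 the arms overlapped, with 15.2, 22.3 and 39.4 CPM in 56Fe livers and 38.3, 8.18 and 17.6 CPM in control livers. At month 4 they had 5.21, 16.3 and 15.4 CPM in 56Fe livers and 6.73, 10 and 3.94 CPM in control livers, and at months 9 and 12 all values lay between 4.31 and 20.7 CPM. The test that the irradiation effect differs between months did not pass for E2f8 (edgeR adjusted p = 0.0926).

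E2f7, the partner repressor of E2f8, had 1.83, 1.54 and 2.03 CPM in 56Fe livers at month 2, against 1.06, 1.60 and 1.35 CPM in control livers, and the groups overlapped. At month 4 its groups did not overlap, with 1.65, 1.54 and 1.27 CPM in 56Fe livers against 1.15, 0.806 and 0.600 CPM in control livers, but the difference did not pass (log2 fold change 0.79, edgeR adjusted p = 0.262). E2f1, an activator of the replication genes, Foxm1, the activator of mitotic genes, and Uhrf1, which keeps DNA methylation in place through replication, were not called at any month. At month 9 E2f1 had 1.64, 3.23 and 1.92 CPM in 56Fe livers and 2.69, 4.42 and 3.71 CPM in control livers (log2 fold change -0.67, edgeR adjusted p = 0.179).

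The E2f8 call was lost without 56Fe replicate 1 or 3 or without control replicate 1, 2 or 3 at month 2, with log2 fold changes of 2.08 to 2.67 and adjusted p of 0.0548 to 0.149. With the Gm26917 covariate the log2 fold change was 2.23 (adjusted p = 0.124). At month 2 the share of Gm26917 did not overlap between the arms either, so the same limit holds. E2f8 also shares 610 bases of exon (11.2% of its exon bases) with Gm2788, a non-coding transcript on the opposite strand (chromosome 7, 48877958 to 48913040). The strand setting of the count table is not stated, so reads of the shared bases cannot be told apart. Gm2788 had 57.1, 20.1 and 52.0 CPM in 56Fe livers at month 2 and 25.6, 15.3 and 14.8 CPM in control livers (log2 fold change 1.22, edgeR adjusted p = 0.0584). Over the 12 livers of months 1 and 2, log2 CPM of the pair had r = 0.91 (adjusted permutation p = 0.00024) and rho = 0.85 (adjusted p = 0.0018), with r = 0.82 without the 2 livers farthest in E2f8. Over the 18 livers of months 4, 9 and 12, r was 0.73 (adjusted p = 0.000907) and rho 0.81 (adjusted p = 0.00032), with r = 0.69 without 2. Livers were permuted across arms and months, so differences between groups, such as that of month 2, enter these values.

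**Figure D4:**
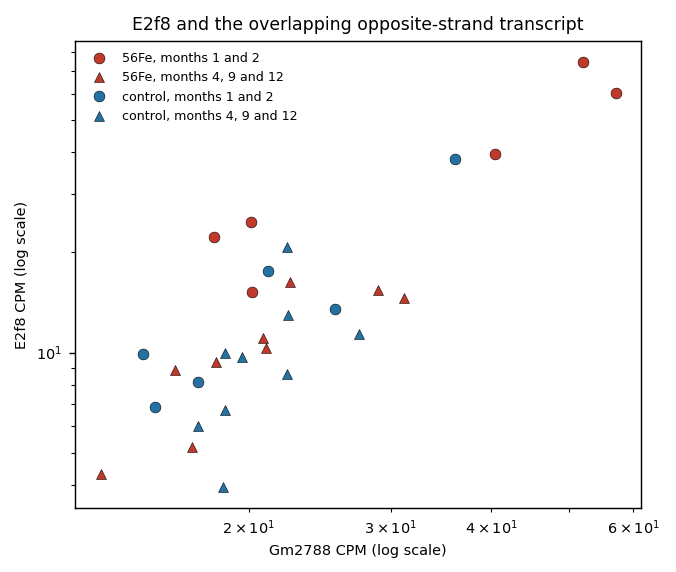
CPM of E2f8 against CPM of Gm2788 in 30 livers, both on log scales (red 56Fe, blue control; circles months 1 and 2, triangles months 4, 9 and 12). The 2 highest points are 56Fe livers of month 2, with 74.7 and 60.3 CPM of E2f8.

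The 8 replication licensing genes build the pre-replicative complex, in which Cdc6 and Cdt1 load the ring of Mcm2 to Mcm7 onto DNA. None was called at any month. At month 1 their log2 fold changes were positive in 7 of 8 genes, with a median of 0.35 beside -0.03 over all genes tested. Mcm7 had 13, 15.1 and 14.1 CPM in 56Fe livers, against 11.9, 9.36 and 9.49 CPM in control livers, with no overlap (log2 fold change 0.45, SE 0.15, edgeR adjusted p = 0.0945). Mcm2 did not overlap either, with 3.91, 4.03 and 4.91 CPM in 56Fe livers and 3.40, 2.36 and 2.54 CPM in control livers (edgeR adjusted p = 0.302). Cdt1 was the exception in sign, with 2.22, 2.32 and 3.18 CPM in 56Fe livers, against 4.07, 4.18 and 3.48 CPM in control livers (log2 fold change -0.61, edgeR adjusted p = 0.311). With upper quartile factors Mcm7 was called at month 1 (log2 fold change 0.55, adjusted p = 0.0271), as it was with a filter of 1 CPM in 3 libraries (0.52, adjusted p = 0.0419).

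Mcm7 overlapped at month 2, with 16.5, 12.4 and 17.4 CPM in 56Fe livers and 14, 10.6 and 12.6 CPM in control livers (log2 fold change 0.32, edgeR adjusted p = 0.220). At month 9 log2 fold changes of the licensing genes were negative in 7 of 8, with a median log2 fold change of -0.31, beside 0.004 over all genes tested. Control replicate 2 was the highest control liver for Mcm2 to Mcm6 and Cdc6, and the lowest for Mcm7 and Cdt1. Markers of some other cell types lay lower at the same month. Log2 fold changes were negative in 8 of 8 sinusoidal endothelium markers, with sums of 378 to 475 CPM in 56Fe livers and 535 to 601 CPM in control livers. They were negative in 7 of 8 stellate cell markers (sums of 428 to 491 CPM in 56Fe livers and 559 to 630 CPM in control livers) and in 6 of 6 erythroid markers tested (194 to 214 CPM in 56Fe livers and 231 to 278 CPM in control livers). Sums of the other marker lists overlapped between the arms. Their medians were higher in 56Fe livers for macrophages (422 against 343 CPM in control livers) and for the lymphocyte list, mostly Ptprc (38.7 against 30.5 CPM). They were also higher for neutrophils and myeloid precursors (6.16 against 1.91 CPM) and for the cholangiocyte list, mostly Spp1 (60.9 against 27.3 CPM). They were lower for hepatocytes (80400 against 84800 CPM). None of these markers was called, and their part in the month 9 values of the cell cycle genes was not tested. Mcm5 had 2.33, 4.36 and 3.76 CPM in 56Fe livers, against 4.88, 7.12 and 5.08 CPM in control livers (log2 fold change -0.70, edgeR adjusted p = 0.149). Cdt1 had 0.950, 1.28 and 1.85 CPM in 56Fe livers, against 2.24, 2.01 and 2.93 CPM in control livers (log2 fold change -0.79, edgeR adjusted p = 0.200). Neither gene overlapped between the arms and neither passed.

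The 5 genes of nucleotide supply and the replication fork were not called by edgeR at any month. Rrm1 had the smallest unadjusted p of all members at month 4, with 10.7, 12.5 and 12.3 CPM in 56Fe livers, against 15.5, 15.1 and 15.5 CPM in control livers (log2 fold change -0.38, SE 0.14, edgeR adjusted p = 0.115), and DESeq2 (adjusted p = 0.0488) and limma voom (adjusted p = 0.0258) called it. It did not overlap at month 2 either, with 9.48, 10.2 and 7.94 CPM in 56Fe livers, against 11.9, 10.9 and 12.8 CPM in control livers (log2 fold change -0.37, edgeR adjusted p = 0.118; called by limma voom, adjusted p = 0.0181). Rrm2 lay lower without overlap at month 2 (log2 fold change -0.78, edgeR adjusted p = 0.242; called in the fit of the 6 livers compared, adjusted p = 0.0293) and at month 4, with 4.87, 5.43 and 5.70 CPM in 56Fe livers and 6.73, 7.52 and 10.2 CPM in control livers at month 4. Pcna had 21.7, 26.3 and 23.4 CPM in 56Fe livers at month 4 and 29.2, 29.8 and 26.2 CPM in control livers, the highest 56Fe liver lying just above the lowest control (log2 fold change -0.26, edgeR adjusted p = 0.283). At month 9 the sign of Rrm2 was the other way (log2 fold change 0.91, edgeR adjusted p = 0.181), with 19.9 CPM in 56Fe replicate 1, the liver with the highest cholangiocyte sum, 5.86 and 8.97 CPM in the other 56Fe livers, and 6.57, 5.57 and 6.18 CPM in control livers. The part of that liver's marker levels was not tested. Without 56Fe month 9 replicate 2, 3 members were called (Birc5, E2f1 and Rrm2).

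Tk1, which salvages thymidine, differed in sign between months. At month 4 it had 26.3, 24.1 and 26.4 CPM in 56Fe livers, against 22.9, 19.8 and 18.3 CPM in control livers (log2 fold change 0.33, edgeR adjusted p = 0.295). At month 9 it had 16.2, 16.8 and 13.1 CPM in 56Fe livers and 27.8, 15.3 and 24.1 CPM in control livers (log2 fold change -0.54, edgeR adjusted p = 0.0983; called by limma voom, adjusted p = 0.0182). Its test of a difference between months had the smallest p of all members and did not pass (edgeR adjusted p = 0.0852). Same-numbered livers of the arms deviated together at month 4, and with the replicate number as a block in the 6 livers of that month alone, Rrm2 (log2 fold change -0.54, adjusted p = 0.0456) and Tk1 (0.39, adjusted p = 0.0347) were called, where the block in the fit of all livers called 0 members.

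The 12 mitosis and cytokinesis genes gave no call by edgeR at any month. Their median log2 fold changes were 0.01, -0.14, -0.22, -0.51 and 0.02 in time order. Mki67 had 6.30, 6.27 and 8.48 CPM in 56Fe livers at month 1, against 7.20, 9.18 and 4.61 CPM in control livers. At month 12 it had 5.31, 4.53 and 8.75 CPM in 56Fe livers, against 5.56, 14.3 and 8.91 CPM in control livers, where the high value is the liver with the high macrophage sum (log2 fold change -0.63, edgeR adjusted p = 0.471). The largest difference in size was that of Bub1 at month 4, with 0.411, 0.000 and 0.0671 CPM in 56Fe livers and 0.535, 0.873 and 0.343 CPM in control livers (edgeR adjusted p = 0.155), at 0 to 19 counts over all libraries; limma voom called it (adjusted p = 0.0213). Top2a did not overlap at month 4, with 3.09, 2.95 and 3.42 CPM in 56Fe livers, against 5.12, 5.64 and 4.63 CPM in control livers, and was called in the fit of those 6 livers (log2 fold change -0.65, adjusted p = 0.0499). At month 9, 11 of the 12 genes had negative log2 fold changes, where the median over all genes tested was 0.004. In most of them 56Fe replicate 1 was the lowest 56Fe liver and control replicate 2 the highest control liver. Mki67 had 1.90, 5.49 and 4.52 CPM in 56Fe livers and 3.98, 8.38 and 2.93 CPM in control livers. Top2a had 1.30, 4.06 and 4.18 CPM in 56Fe livers and 3.82, 6.49 and 2.86 CPM in control livers. For Plk1 both livers went the other way. These signs therefore do not count as separate evidence. The marker sums of that month, given above, were lower for some cell types and higher for others. Plk1, the polo-like kinase of mitotic entry, had 0.259, 0.15 and 0.137 CPM in 56Fe livers and 0.393, 0.345 and 0.651 CPM in control livers, without overlap and without a call. Prc1, which bundles the central spindle, had the smallest p of the members at month 12, with 0.786, 1.47 and 2.51 CPM in 56Fe livers and 2.74, 3.52 and 2.37 CPM in control livers (log2 fold change -0.86, edgeR adjusted p = 0.318). Plk1 followed among the mitotic genes of month 12, at -0.79 (edgeR adjusted p = 0.545).

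Counts of members whose arms did not overlap were set beside those of all genes. Month 1 had 3 members with every 56Fe liver below every control liver (Ccne1, Ccnd1 and Cdt1; 9.92% of all genes) and 2 with every one above (Mcm7 and Mcm2; 8.71%). Month 2 had 8 below (Mcm6, Pcna, Rrm1, Cdk1, Tk1, Birc5, Rrm2 and Uhrf1; 18.6%) and 1 above (E2f8; 15.6%). Month 4 had 7 below (Tyms, Ccne1, Prc1, Rrm1, Ccnd1, Top2a and Rrm2; 15.9%) and 3 above (E2f7, Cdc6 and Tk1; 14.3%). Month 9 had 4 below (Aurka, Plk1, Mcm5 and Cdt1; 8.77%) and 0 above (9.4%). Month 12 had 0 below (7.78%) and 0 above (7.74%).

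Averaged over the 5 months, Ccnd1 and Ccne1 were lower in 56Fe livers by edgeR, and which genes were called moved with the setting. The test called these 2 of 37 genes, against 5.26% of all genes (2.44% higher and 2.81% lower), with log2 fold changes of -0.65 (SE 0.16, edgeR adjusted p = 0.0224) for Ccnd1 and -0.78 (SE 0.23, edgeR adjusted p = 0.0475) for Ccne1. Rrm1 was next, at the threshold and not called (log2 fold change -0.20, SE 0.06, edgeR adjusted p = 0.05), followed by Tk1 (-0.19, edgeR adjusted p = 0.137) and E2f8 (0.60, edgeR adjusted p = 0.157). Mki67 (-0.33) and E2f7 (0.22) did not pass either. The replicate block called Ccnd1 (adjusted p = 0.0183) and Rrm1 (adjusted p = 0.0491) and lost Ccne1 (adjusted p = 0.0587). Ccne1 was also lost with RLE or upper quartile factors, the 1 CPM filter and limma voom, and Ccnd1 with no low-count filter (adjusted p = 0.0511). DESeq2 called Rrm1 (adjusted p = 0.0403) beside both cyclins, and limma voom called Rrm1 (adjusted p = 0.0254) and Tk1 (adjusted p = 0.0300) beside Ccnd1. The median log2 fold change was -0.17 over the 37 genes and -0.002 over all genes tested, and log2 fold changes were negative in 11 of 12 mitosis genes and all 5 genes of nucleotide supply and the fork. Markers of some other cell types moved the same way. Values were negative in 6 of 6 erythroid markers (Hba-a1 at -1.09 and Hbb-bs at -0.81 were called) and 8 of 8 hepatocyte markers (Asgr1 at -0.23 was called). They were negative in 8 of 8 macrophage markers, which are high in control month 12 replicate 2, and 6 of 8 stellate cell markers (Dcn at -0.19 was called). Median sums of the other lists went both ways between months. For endothelium they were 383 and 358 CPM in 56Fe and control livers at month 1, and 414 and 552 CPM at month 9. For the lymphocyte list, mostly Ptprc, they were 32.3 and 43.1 CPM at month 1, and 38.7 and 30.5 CPM at month 9. The part of these markers in the mean values was not tested. Taken within the composition split, the mean over months 1 and 2 was -1.07 for Ccnd1 (adjusted p = 0.00991) and -1.2 for Ccne1 (adjusted p = 0.0392), with E2f8 (1.33) and Mcm7 (0.39) also called. Over months 4, 9 and 12 it was -0.36 for Ccnd1 (adjusted p = 0.556) and -0.51 for Ccne1 (adjusted p = 0.571), and 0 members were called. Ccnd1 remained called in 29 of 30 fits that left out 1 library; without control month 1 replicate 2 its adjusted p was 0.0506. Ccne1 remained called in 10 of 30. The test that the irradiation effect differs between months called 0 of 37 members, against 11% of all genes (edgeR). An unadjusted p under 0.05 was found for 3 members (Tk1, E2f8 and Rrm2), beside 5808 of all 19685 genes. DESeq2 called 2 (E2f8 and Rrm2) and limma voom 3 (Bub1, Ccnd1 and Tk1).

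Genes of the pathway outside the 37 were read from 4 lists. Among 17 CDK inhibitors and checkpoint brakes tested, of 18 listed, 3 were called at month 1, where 4.6% of all genes were. Cdkn1a, the p53-driven inhibitor p21, had 4.79, 4.26 and 8.48 CPM in 56Fe livers, against 0.267, 0.636 and 0.470 CPM in control livers (log2 fold change 3.69, SE 0.69, edgeR adjusted p = 0.00297). Wee1, the kinase that holds Cdk1 inactive, had 1.95, 0.971 and 0.482 CPM in 56Fe livers, against 17.3, 18.4 and 16.3 CPM in control livers (log2 fold change -3.92, SE 0.60, edgeR adjusted p = 0.000471). Ccng2, cyclin G2, was higher (log2 fold change 0.76, edgeR adjusted p = 0.0167). The control livers of month 1 stood out in both directions, since Cdkn1a in control livers of the later months lay at 0.873 to 29.0 CPM and Wee1 at 1.90 to 11 CPM. Cdkn1a was not called at the 4 later months, where its log2 fold changes were -0.96, 0.06, 1.30 and -1.67 in time order.

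Of the other G1 and S regulators, 1 of 22 was called at month 1 (Cdk6, a partner kinase of cyclin D, log2 fold change -0.72, edgeR adjusted p = 0.00279) and 1 at month 2 (Rb1, the retinoblastoma protein that restrains E2F, 0.66, edgeR adjusted p = 0.00902), beside 4.6% and 4.37% of all genes. Of 28 other replication genes reported here, 3 were lower at month 4, where 1.77% of all genes were, Orc2 and Orc4 of the origin recognition complex (-0.71 and -0.45) and Cdc45 of the replicative helicase (-1.16). Of 38 other mitosis genes 1 was called at each of months 1, 2 and 4. Ccnf, cyclin F, was higher at month 1 (1.17, edgeR adjusted p = 0.00995), Cenpa, the centromeric histone, was higher at month 2 (0.79, edgeR adjusted p = 0.0496) and Cks1b, a Cdk-binding subunit, was lower at month 4 (-1.49, edgeR adjusted p = 0.00148). Cks1b had 2.61, 2.55 and 4.03 CPM in 56Fe livers at month 4, against 7.87, 8.2 and 9.86 CPM in control livers. None of these 4 lists had a call at month 9 or 12 (edgeR). Of their genes 14 and 6 had an unadjusted p under 0.05, beside 3166 and 2648 of all 19685 genes.

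Over time, the median over livers of both arms was higher at months 4, 9 and 12 for Pcna, Mcm2, Mcm4, Rrm1 and Rrm2, and lower for Ccne2, Ccnb2 and Tk1. Each of these 8 genes was called over 5 months in each arm. For Tk1 the order did not hold month by month, since 56Fe livers averaged 24.5, 19.2, 25.6, 15.4 and 16.7 CPM in time order. Marker sums moved across the same months. Medians at the later and the earlier livers were 78000 and 53400 CPM for hepatocytes, 505 and 290 CPM for stellate cells and 220 and 81.6 CPM for erythroid cells. They were 462 and 397 CPM for endothelium and 323 and 247 CPM for macrophages. The order was reversed for the lymphocyte list, mostly Ptprc (29.5 and 36.8 CPM), and for neutrophils and myeloid precursors (2.03 and 2.91 CPM). It was also reversed for the cholangiocyte list, mostly Spp1 (32.1 and 35.4 CPM). The part of these sums in the time results was not tested. The F-test over 5 months called 10 of 37 members in 56Fe livers, against 59% of all genes, and 15 of 37 in control livers, against 58.3% of all genes. These shares lie below those of all genes, and the time contrasts run across the composition split. In 56Fe livers the calls were Pcna, Rrm2, Rrm1, E2f8, Tk1, Mcm4, Ccne2, Birc5, Ccnb2 and Mcm2. In control livers they were Pcna, Mcm2, Mcm7, Mcm4, Mcm5, Ccne2, Tk1, Rrm1, Mcm6, E2f7, Mcm3, Rrm2, Cdt1, Ccne1 and Ccnb2.

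Pcna gave the plainest pattern. Its means at months 1, 2, 4, 9 and 12 were 13.6, 15.6, 23.8, 28.2 and 22.3 CPM in 56Fe livers, and 14.5, 17.9, 28.4, 27.0 and 22.2 CPM in control livers, with SDs of 0.518 to 3.50 CPM (n = 3 each). All 18 livers of months 4, 9 and 12 (19.0 to 30.7 CPM) lay above all 12 of months 1 and 2 (11.7 to 18.3 CPM). Medians over the later livers, set against those over the earlier livers, were 15 and 10.6 CPM for Rrm1, 6.37 and 2.78 CPM for Rrm2, 6.32 and 3.49 CPM for Mcm2, and 8.27 and 5.04 CPM for Mcm4. They went the other way for Ccne2 (2.44 and 3.98 CPM), Ccnb2 (0.814 and 1.30 CPM), Tk1 (18 and 24 CPM) and E2f8 (9.86 and 20 CPM). Mki67, at 5.17 and 6.29 CPM, was not called in either arm. With the Gm26917 covariate, 0 members were called in 56Fe livers and 2 (Mcm4 and Tk1) in control livers. The share of Gm26917 splits along the same months, so the loss of calls in this fit cannot tell time from composition.

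**Figure D5:**
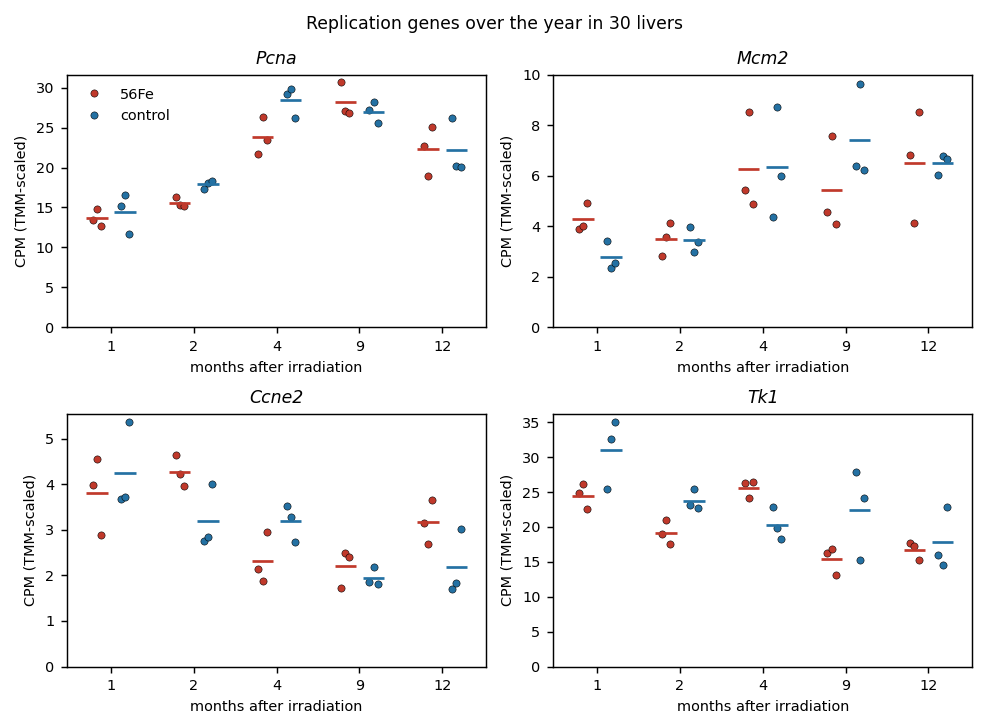
CPM of Pcna, Mcm2, Ccne2 and Tk1 in each of 30 livers by month (points; red 56Fe, left, and blue control, right) with group means (bars, n = 3). Every Pcna point of months 4, 9 and 12 lies at 19.0 CPM or above, and every one of months 1 and 2 at 18.3 CPM or below.

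Within each side of the split few members changed. Over months 4, 9 and 12 the test called 1 of 37 in 56Fe livers, Tk1 (edgeR adjusted p = 0.0263), against 2.93% of all genes. The fall in its means lay between months 4 and 9. In control livers the test called 0 of 37 by edgeR, against 20.2% of all genes. An unadjusted p under 0.05 was found for 4 members, beside 6677 of all 19685 genes. The smallest p-values were those of Prc1 (edgeR adjusted p = 0.0771), Ccne2 (0.0907) and Pcna (0.0958). DESeq2 called 1 (Pcna) and limma voom 3 (Ccne2, Cdk1 and Prc1) in control livers. Leaving out any of the 3 56Fe livers of month 4, or month 9 replicate 1 or 3, or month 12 replicate 3, ended the Tk1 call, and without month 9 replicate 2 there were 3 calls (Birc5, Rrm2 and Tk1).

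Month 2 minus month 1 gave 0 calls in 56Fe livers by edgeR, against 0.00508% of all genes, and 0 by DESeq2 and limma voom. By edgeR 2 members had an unadjusted p under 0.05, beside 2386 of all 19685 genes. In control livers this contrast gave 1 call, against 9.8% of all genes (5.75% higher and 4.05% lower). That gene was Cdt1, with means of 1.94 CPM at month 2 and 3.91 CPM at month 1 (log2 fold change -1.02, edgeR adjusted p = 0.0335), and the call ended without control month 1 replicate 1 or 3 or month 2 replicate 2. Month 12 minus month 4 gave 0 calls in 56Fe livers by edgeR, against 0.0864% of all genes (0.0559% higher and 0.0305% lower). DESeq2 gave 0 and limma voom 1 (Bub1). By edgeR 4 members had an unadjusted p under 0.05, beside 1892 of all 19685 genes. In control livers this contrast gave 1 call, against 22.2% of all genes (12.6% higher and 9.5% lower). That gene was Pcna, with means of 22.2 CPM at month 12 and 28.4 CPM at month 4 (log2 fold change -0.36, edgeR adjusted p = 0.0471). The Pcna call ended without control month 4 replicate 1 or 2 or month 12 replicate 2, and without month 12 replicate 3 Ccne2 and Plk1 were called in its place.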

How the data were processed

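The 37 genes, the lists of other genes and the tests were chosen with earlier results of these data known. Read counts per gene were deposited by the authors, who aligned paired reads to GRCm38 with STAR 2.5.3a and counted on Gencode M14, per the submitters' processing notes; the strand setting is not given there. Per the labels, ribosomal RNA was removed before TruSeq library preparation. From these counts, edgeR 4.0.16 in R 4.3.3 tested 19685 genes kept by filterByExpr (minimum count 10, minimum total 15), in a robust quasi-likelihood fit of all 30 libraries with TMM factors, with Benjamini-Hochberg adjustment. Totals of 7995248 to 20215995 counts limit precision for genes with few counts. DESeq2 1.42.0, limma 3.58.1 (voom), other scalings and filters, log2 CPM of Gm26917 as a covariate, the replicate number as a block, fits of only the 6 livers compared and leave-one-out fits were alternatives. Relations between genes used permutation tests (scipy 1.17.1).

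Any of the 37 genes could be named; called members were, or the 5 smallest p-values where fewer than 5 were called, and from the other lists up to 10 called genes per comparison. Same-numbered livers of the arms had deviations correlated at r = -0.396 to 0.436, over 0.1 in 9 of 15 pairs. All 3 pairs were over 0.1 at month 4 (0.171, 0.123 and 0.144) and at month 12 (0.249, 0.436 and 0.256), where the numbers were taken to pair the livers. The labels do not state such a pairing, and the main fit does not use it. The same number gave the highest correlation in 9 of 15 pairs. For month 12 replicate 3 another number gave a higher one (0.352). Replicates are biological per the labels. A gene of the other replication list is not reported here.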

Additional observations from a re-analysis of the deposited data

Results flagged for a closer look

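Outside the 37 genes, 6 other cell cycle genes reported here had an irradiation effect that differed between months in edgeR's F-test of the interaction, where 11% of all genes tested did. By list they were 2 of 22 G1 and S regulators, 2 of 17 brakes, 1 of 28 replication genes and 1 of 38 mitosis genes, so the count is no result about these lists. Cdkn1a, the inhibitor p21, had an adjusted p of 0.00399, with log2 fold changes of 3.69 at month 1 and -1.67 at month 12, where control replicate 2 held 29.0 CPM. Wee1 had an adjusted p of 0.0112, with its one called difference at month 1 (-3.92). Cdk6 (adjusted p = 0.00806) had 36.9, 46.1 and 34.5 CPM in 56Fe livers at month 1, against 75.3, 68.2 and 49.8 CPM in control livers. At month 4 Cdk6 lay the other way, with 69.0, 68.7 and 69.7 CPM in 56Fe livers and 59.8, 54.9 and 63.6 CPM in control livers.

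Cks1b (adjusted p = 0.00852) had its called difference at month 4. Orc4 (adjusted p = 0.0239) had 26.7, 24 and 24.6 CPM in 56Fe livers at month 4, against 32.9, 31.6 and 38.1 CPM in control livers. Rb1 (adjusted p = 0.0424) had 20.5, 20.2 and 22.3 CPM in 56Fe livers at month 2, against 14.8, 12.4 and 12.8 CPM in control livers. The share of Gm26917 differed between the arms at months 1, 2 and 4, and in the reverse order at month 12. Its part in these results was not tested.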

How the results depend on the processing

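The 5 called fold changes of members kept their direction in 124 of 124 values under other settings and were past the threshold in 70. Counts of members called moved as follows, and the cause was not tested. The shares of all genes called under each of these settings are not given here, so the counts describe stability and are no result about the members. The Gm26917 covariate separates the arms at months 1, 2, 4 and 12 and follows the split over time, so lost calls in its fits decide nothing. Month 1 (2 called) gave 1 with no filter (Ccne1) and 0 once Gm26917 was a covariate. DESeq2, the replicate block and a fit of 6 libraries each gave 1 (Ccnd1). Both cyclins were called with RLE factors and voom. With upper quartile factors or a filter of 1 CPM in 3 libraries, the 2 calls were Ccnd1 and Mcm7. Month 2 (1 called) gave 3 with voom, 3 in a fit of 6 libraries and 0 with the covariate. Month 4 (0 called) gave 1 with DESeq2, 2 with voom, 1 in a fit of 6 libraries and 2 once that fit held the replicate block. Month 9 (0 called) gave 1 with voom, and month 12 gave 0 in each setting. The mean effect (2 called) gave 1 with RLE factors, upper quartile factors, no filter or a filter of 1 CPM in 3 libraries, 3 with DESeq2 and voom, 2 with the replicate block (Ccnd1 and Rrm1), 0 with the covariate, 4 over months 1 and 2 alone and 0 over months 4, 9 and 12 alone. The interaction (0 called) gave 2 with DESeq2 and 3 with voom.

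In 56Fe livers the change over 5 months (10 called) gave 0 with the covariate. The change over months 4, 9 and 12 (1 called) gave 2 with DESeq2, 3 with voom and 0 with the covariate, and month 12 minus month 4 (0 called) gave 1 with voom. In control livers the change over 5 months (15 called) gave 2 with the covariate. The change over months 4, 9 and 12 (0 called) gave 1 with the 1 CPM filter, 1 with DESeq2 and 3 with voom. Month 2 minus month 1 (1 called) gave 2 with upper quartile factors, DESeq2 and voom, and 3 with the covariate. Month 12 minus month 4 (1 called) gave 0 with upper quartile factors, no filter and the covariate, and 2 with voom.

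Leaving out 1 library gave 0 to 2 calls at month 1, 0 to 1 at month 2, 0 to 0 at month 4, 0 to 3 at month 9, 0 to 0 at month 12, 0 to 3 for the mean and 0 to 2 for the interaction. It gave 9 to 12 and 11 to 17 over 5 months in 56Fe and control livers, 0 to 3 in each arm over months 4, 9 and 12, 0 to 0 and 0 to 1 for month 2 minus month 1, and 0 to 0 and 0 to 2 for month 12 minus month 4. The interaction gave calls without control month 1 replicate 2 or 3 (Rrm2), control month 9 replicate 2 (Tk1) or 56Fe month 9 replicate 2 (Birc5 and Rrm2). The control change over months 4, 9 and 12 gave 3 without month 9 replicate 2 and 1 without month 12 replicate 1 or 3. The months taken alone and the block in 6 libraries were chosen after seeing the data. Members under 1 CPM rest on few counts, which limits what can be detected.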
